A study of Mus musculus with 6 samples.

Results

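Restriction factors are cellular proteins that block viruses inside the cell that makes them. The 10 genes described here are Fv1, Apobec3, Samhd1, Mov10, Zc3hav1, Ifitm1, Ifitm2, Ifitm3, Bst2 and Rsad2, and the features of the array annotated to them were taken by gene symbol. Each gene had 1 feature, so the 10 genes stand for 10 of the 23521 features with a single gene symbol. The set was put together with the differences of Fv1 and Ifitm3 between treated and untreated arrays already known. It was therefore selected on the contrast described below, and the values of the 10 genes in that contrast are given as a description, with no test.

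The cells were R1, a male mouse embryonic stem cell line from a 129X1 x 129S1 cross, and every group was kept on gelatin with fetal bovine serum and LIF, a cytokine that sustains self-renewal. The untreated group (3 arrays) received no addition. The AA2G group (3 arrays) received ascorbic acid 2-glucose, a stabilised form of vitamin C, at 0.74 mM (250 µg/ml) for 3 days. The submitters call the replicates independent without saying whether they are separate cultures, so the p-values measure only the spread between these samples of 1 line.

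Retroviruses meet several of these proteins in turn. Fv1 descends from the gag gene of an endogenous retrovirus and acts on the incoming capsid of murine leukaemia viruses, while the IFITM proteins sit in membranes and hinder the fusion of viruses with the cell. Apobec3 deaminates retroviral DNA, Samhd1 breaks down the nucleotides needed to make it, Mov10 and Zc3hav1 act on viral RNA, and Bst2 (tetherin) holds new particles at the cell surface. Several of these genes are induced by interferon in differentiated cells, through the ISRE, a DNA element read by interferon-activated transcription factors. Embryonic stem cells are known for a weak interferon response and for making some antiviral proteins without it. Ifitm3 is also known as Fragilis, a marker of early germ cells.

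The stretches upstream of the starts of Fv1 and Ifitm3 are shown because these genes had the widest gaps between the groups. Both come from RefSeq on GRCm38.p6, the C57BL/6J reference, and not from R1 cells. The Fv1 stretch is chr4:147868729-147868978 on the plus strand and the Ifitm3 stretch is chr7:141010745-141010994 on the minus strand, and each ends 1 base before the annotated start. Capitals would mark a match to the ISRE letters, and neither stretch holds one.
Fv1: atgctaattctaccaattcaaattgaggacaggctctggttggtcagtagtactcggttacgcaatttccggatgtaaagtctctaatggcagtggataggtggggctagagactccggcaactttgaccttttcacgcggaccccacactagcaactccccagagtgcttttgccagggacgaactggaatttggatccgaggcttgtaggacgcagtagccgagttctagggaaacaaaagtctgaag
Ifitm3: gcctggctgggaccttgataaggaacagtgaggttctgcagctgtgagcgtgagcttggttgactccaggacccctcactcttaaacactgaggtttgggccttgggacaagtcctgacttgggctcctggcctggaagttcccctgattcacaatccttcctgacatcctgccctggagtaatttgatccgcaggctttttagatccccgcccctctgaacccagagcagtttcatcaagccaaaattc

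The ISRE letters searched were GAAANNGAAA on both strands, in windows from 250 bases before to 50 bases after each annotated start. Of 32851 such RefSeq windows, 3.44% held a match. A window was found for each of the 10 genes (2 each for Mov10 and Apobec3), and the windows of 5 genes held a match: Apobec3, Ifitm2, Ifitm3, Bst2 and Rsad2. In a list of interferon-stimulated genes described below, 11 of the 25 genes with a window held one. The matches are shown in capitals, each in 30 bases of the gene's strand on GRCm38.p6, so that their letters can be read. These 5 genes were picked from the 10 by having a match, so the match is not a trait of the whole set. The Ifitm2 site is chr7:140955988-140956017 (minus strand), that of Ifitm3 chr7:141010714-141010743 (minus), that of Bst2 chr8:71537580-71537609 (minus), that of Rsad2 chr12:26456553-26456582 (minus) and that of Apobec3 chr15:79892258-79892287 (plus).
Ifitm2: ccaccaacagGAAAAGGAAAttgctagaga
Ifitm3: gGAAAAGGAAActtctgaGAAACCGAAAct
Bst2: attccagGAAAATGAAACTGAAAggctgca
Rsad2: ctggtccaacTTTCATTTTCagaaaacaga
Apobec3: catcagttagTTTCCCTTTCtctttgcgat

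In Ifitm3 the 2 matches began 2 and 19 bases past the start, whereas in Ifitm2 the match began 46 bases before it. Bst2 had 2 overlapping matches, in Rsad2 and Apobec3 the match lay on the other strand, and the windows of Fv1, Ifitm1, Samhd1, Mov10 and Zc3hav1 held none. The letters TTCNNNGAA, a core of the GAS element through which interferon-gamma acts, stood in the windows of Samhd1, Ifitm3 and Bst2, against 8.30% of all windows. In Ifitm3 and in Bst2 this match overlapped an ISRE match. A match in letters is a description of the reference and does not show that a factor binds there.

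**Figure D1:**
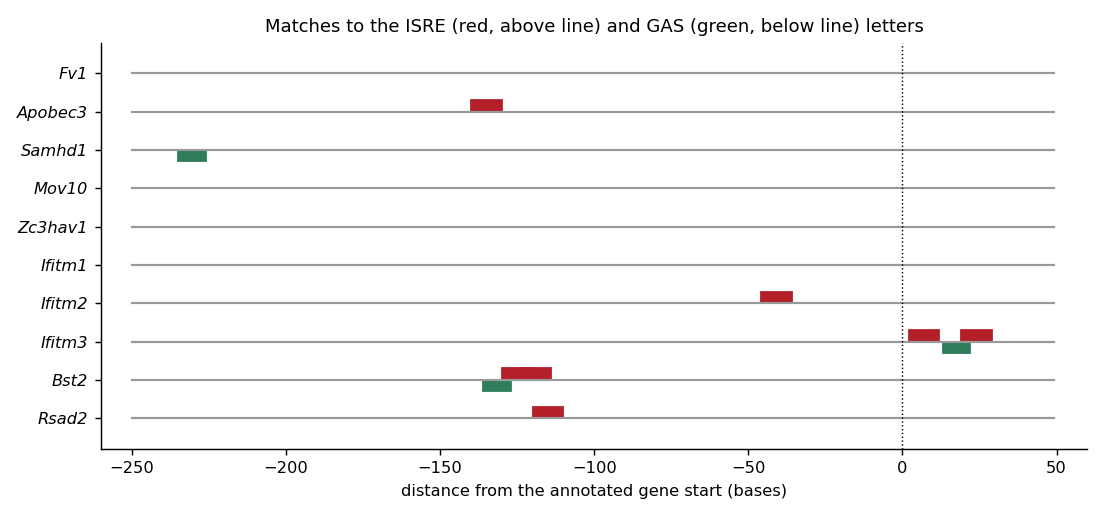
Positions of matches to the ISRE letters (red, above the line) and the GAS letters (green, below the line) in the windows of the 10 genes, by distance from the annotated gene start in bases; the second windows of Mov10 and Apobec3, which hold neither, are not drawn. Fv1 has no match, while the ISRE matches of Ifitm3 lie just past its start.

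Fv1 was lower in the cells kept with AA2G. Its log2 RMA values (the expression scale of the deposited table) were 6.62, 6.61 and 6.46 on the untreated arrays and 5.92, 5.59 and 5.73 on the AA2G arrays. The lowest untreated array lay 0.54 above the highest AA2G array, so the groups did not overlap. The means were 6.56 ± 0.09 and 5.75 ± 0.17 (SD, n = 3 each), a log2 fold change of -0.82 ± 0.10 (SE), which is a level 1.76-fold higher in untreated cells. Fv1 was the feature with the eighth lowest fold change in the table (rank 8 of 23521).

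Ifitm3, which encodes the family member best known for blocking virus entry from endosomes, was higher with AA2G. It stood at 9.70, 9.82 and 9.91 on the untreated arrays and at 10.41, 10.13 and 10.35 on the AA2G arrays. All 3 AA2G arrays were above all 3 untreated arrays, with a gap of 0.22. The means were 9.81 ± 0.10 and 10.30 ± 0.15 (SD, n = 3 each), and the log2 fold change was 0.48 ± 0.10 (SE), or 1.40-fold. A change of that size or more in either direction was found for 1.42% of the features, and one as large as that of Fv1 for 0.476%.

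The other Ifitm genes of the set had values near 0, and their difference from Ifitm3 was not tested. Ifitm2, which acts on viruses that fuse in endosomes, was at 9.08, 8.92 and 9.08 in untreated cells and at 9.22, 8.81 and 9.09 with AA2G. These ranges overlapped, and the log2 fold change was 0.01 ± 0.11 (SE). Ifitm1, a cell surface member of the family, was at 6.57, 5.98 and 6.47 untreated and at 6.46, 6.32 and 6.37 with AA2G, a log2 fold change of 0.04 ± 0.15. The untreated arrays of Ifitm1 spanned more than the AA2G arrays did, and replicate 2 was the lowest of them. The coding sequences of the Ifitm genes are alike, and whether probes of 1 member also bind transcripts of another was not tested, because probe sequences were not used here.

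The factors that act on retroviral nucleic acids differed by less. Apobec3 was at 9.70, 9.79 and 9.81 in untreated cells and at 9.80, 9.33 and 9.62 with AA2G. The AA2G arrays spread over the untreated ones and below them, and the log2 fold change was -0.18 ± 0.12 (SE). Samhd1 was at 8.58, 8.67 and 8.66 untreated and at 8.71, 8.63 and 8.58 with AA2G, a log2 fold change of 0.00 ± 0.07. For Samhd1 the groups covered nearly the same range, and it had the smallest difference of the 10 genes.

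Mov10, an RNA helicase that also limits retrotransposons, was at 9.45, 9.18 and 9.32 in untreated cells and at 9.55, 9.18 and 9.35 with AA2G. Its log2 fold change was 0.05 ± 0.11 (SE), well inside the spread of the arrays. Zc3hav1, the zinc finger antiviral protein that binds CpG-rich RNA, was at 7.57, 6.77 and 7.20 untreated and at 7.39, 6.72 and 7.04 with AA2G. It had the widest spread within the groups, with SDs of 0.40 and 0.33, and a log2 fold change of -0.13 ± 0.22. For Zc3hav1 as for Mov10, replicate 1 was the highest and replicate 2 the lowest in each group.

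Bst2 and Rsad2, both strongly induced by interferon in responsive cells, were at low to middling values. Bst2 was at 6.72, 6.13 and 6.51 in untreated cells and at 6.53, 6.58 and 6.49 with AA2G, with overlapping groups and a log2 fold change of 0.08 ± 0.14 (SE). Rsad2, which encodes viperin, was at 4.82, 4.81 and 4.82 untreated and at 4.98, 4.83 and 5.08 with AA2G. Its groups stood apart by 0.01 only, the log2 fold change was 0.15 ± 0.08, and its mean over all arrays was below 4.99, the level of the percentile 40 of all features. The table carries no detection calls, so a value this low cannot be told from background. The level of 4.99 is a chosen filter and not a detection limit, so a value above it is not thereby shown to be above background.

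**Figure D2:**
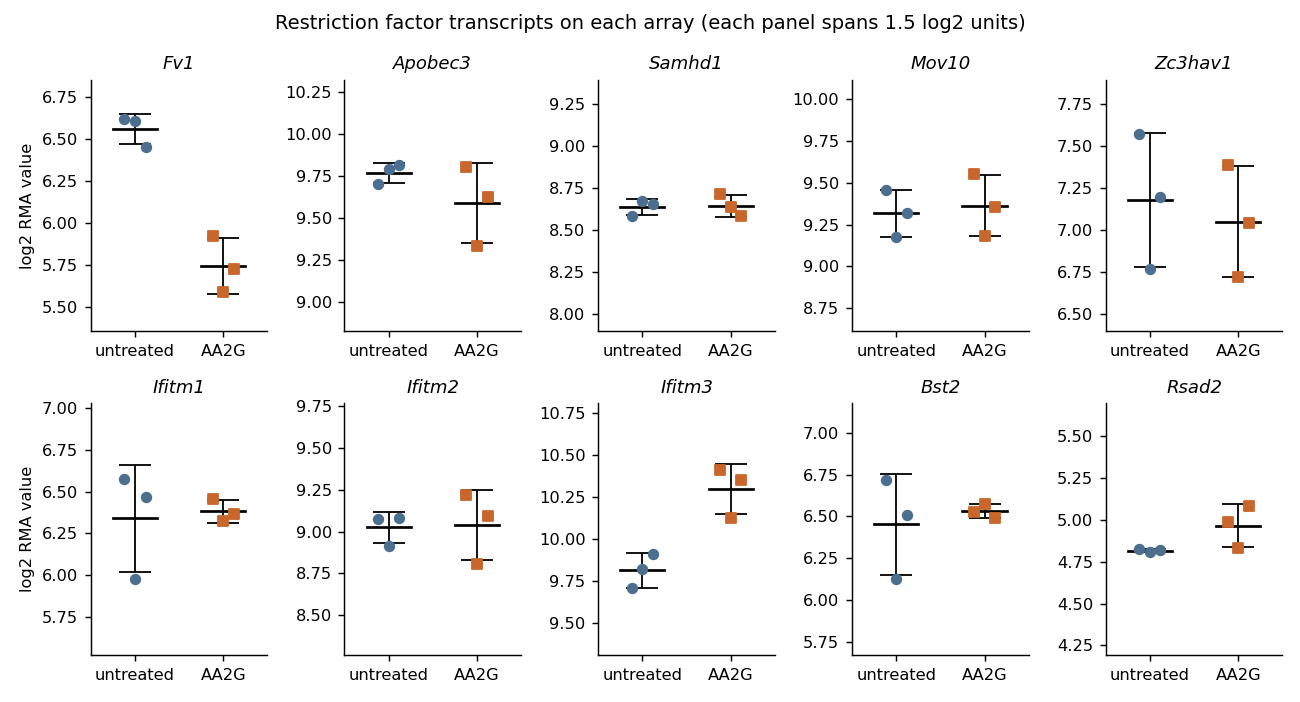
Log2 RMA values of the 10 restriction factor genes on each array, with untreated arrays as circles and AA2G arrays as squares, lines at the group means and bars of 1 SD (n = 3); each panel has its own range of 1.5 log2 units. Fv1 lies 0.82 lower and Ifitm3 0.48 higher with AA2G, while for 7 genes the groups overlap.

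Over the 10 genes, 7 had a positive and 3 a negative log2 fold change, the median was 0.03 against -0.01 over all features, and 8 differed by less than 0.2. The groups did not overlap for 3 genes (Fv1, Ifitm3 and Rsad2), as for 15.7% of all features. In the limma model over all features, at a Benjamini-Hochberg adjusted p of 0.05, 1 of the 10 was called lower (Fv1), 0 were called higher and 9 were not called. Of all features 0.761% were called, 0.153% lower and 0.608% higher. Since the set was built around this contrast, nothing is read from these counts. Fv1 lost its call when untreated replicate 1 (log2 fold change -0.79), untreated replicate 2 (-0.79) or AA2G replicate 3 (-0.81) was left out, and with ordinary per-feature variances. Ifitm3 was called with array weights (0.45), with a trended robust prior (0.48) and among brighter features only (0.48).

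Outside the 10, no interferon-stimulated gene of the list passed the test. Of 35 measured genes of the list, limma called 0 higher and 0 lower, 3 were higher and 1 lower by an unadjusted p below 0.05, and 7 (20% of the list, against 15.7% of all features) had groups that did not overlap. Over all features, 1095 were higher and 1189 lower by that unadjusted p (9.71%), and the counts by it in every list are to be read against this share. The list median was 0.01, but 18 of the 35 genes had a mean level below 4.99, where a value cannot be told from background and a change could go unseen. In brighter genes too a change could go uncalled, as that of Ifitm3 did at 0.48 (limma adjusted p = 0.0909). Isg15, which encodes a ubiquitin-like modifier and is among the most inducible of these genes, was at -0.00 ± 0.10 (SE, log2 fold change), with a 95% interval from -0.24 to 0.24. Its mean level of 3.78 was below that of Rsad2, so this value does not show whether the transcript was present. The list was drawn up with earlier results of these data known.

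The gene of that list with the smallest p was Parp12, an ADP-ribosyltransferase related to Zc3hav1. Parp12 stood at 7.12, 6.77 and 6.84 in untreated cells and at 7.62, 7.46 and 7.43 with AA2G, so that the groups did not overlap. Its log2 fold change was 0.59 ± 0.11 (SE; limma adjusted p = 0.0640). It passed in 6 of 15 alternatives, over which the limma adjusted p ran from 0.0133 to 0.316, and 1 of these left out untreated replicate 1 (0.0339). The next was Ifit3, at -0.25 ± 0.08 (limma adjusted p = 0.334), the opposite direction.

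The upstream steps of the response gave the same count of 0, although some genes, such as Irf9 and Irf7, are also in the list of interferon-stimulated genes. Of 10 measured interferon ligand genes, 0 were called by limma, 1 was higher and 0 were lower by an unadjusted p below 0.05, and Ifna4 was at 0.25 ± 0.07 (SE, log2 fold change; adjusted p = 0.259) and Ifnl3 at 0.19 ± 0.08. The ligand genes had a median of 0.07, 7 of the 10 had a positive value, and 6 had a mean level below 4.99. Their summed log2 values ran from 50.87 to 51.26 on untreated arrays and from 51.31 to 52.17 on AA2G arrays. Of 16 receptor and signalling genes 0 were called, 1 was higher by an unadjusted p below 0.05, and the median was 0.03. Ifnlr1, the receptor chain for type III interferons, was at 0.29 ± 0.09 (limma adjusted p = 0.290), and the kinase gene Tyk2 at 0.11 ± 0.07. Of 19 genes of nucleic acid sensing 0 were called, 2 were higher and 1 lower by an unadjusted p below 0.05, and the median was -0.03.

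Among the sensors Aim2, which detects DNA in the cytosol, was at 3.62, 3.80 and 3.76 untreated and at 3.96, 4.48 and 4.35 with AA2G. The groups stood apart at values that cannot be told from background, and the log2 fold change was 0.54 ± 0.13 (SE; limma adjusted p = 0.169). Without AA2G replicate 1 it was 0.69 and passed (adjusted p = 0.0364), within a range of 0.0364 to 0.462 over 14 alternatives, since it is too dim for the fit of brighter features. Sting1, the adaptor of the cGAS pathway, was at -0.29 ± 0.11. In these 4 lists together, which hold 72 different genes, the median log2 fold change was 0.01 and 59 genes differed by less than 0.2. Of the 72, 31 had a mean level below 4.99. Parp12 and Aim2 had a value as high as that of Ifitm3 and 0 genes had one as low as that of Fv1. This describes these arrays only, since Ifitm3 and Fv1 were selected on their values. It also depends on which list a gene was placed in, and Trim21 and Pml, described below, were placed in other lists.

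Genes were also read by the ISRE letters in their RefSeq window. Of 657 measured genes with a match, 6 were called higher and 1 lower (1.07%), and their median log2 fold change was 0.00. Of 16261 measured genes with a window but no match, 105 were called higher and 23 lower (0.787%), and the median was -0.01. The difference between these shares was not tested.

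Other antiviral effectors were spread on both sides of 0. Of 23 measured genes limma called 0, with 1 higher and 2 lower by an unadjusted p below 0.05 and a median of -0.00. Trim21, an antibody receptor of the cytosol, was at 0.57 ± 0.13 (SE, log2 fold change; adjusted p = 0.125), and Trim30d, of the mouse family related to TRIM5, at -0.67 ± 0.19 (limma adjusted p = 0.227), from values of 3.45 ± 0.26 to 2.78 ± 0.33 (SD, n = 3 each). Both means of Trim30d lay where values cannot be told from background, and for 10 of the 23 genes the mean over all arrays was below 4.99. Of 12 antigen presentation genes, which respond to interferon-gamma above all, 0 were called, 1 was higher and 3 were lower by an unadjusted p below 0.05, and the median was -0.12. Of the 12, 9 had a negative value, and for 6 (50% of the list, against 15.7% of all features) the groups did not overlap. Their summed log2 values ran from 69.5 to 70.8 on untreated arrays and from 68.0 to 68.9 on AA2G arrays. Psmb8, a subunit gene of the immunoproteasome, was at -0.30 ± 0.09 and the peptide transporter gene Tap2 at -0.42 ± 0.13 (limma adjusted p = 0.295 and 0.304).

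Pml fell. It encodes the scaffold of nuclear bodies that hold incoming viral genomes silent, and it was included with its change known from earlier results. It was placed in the list of nuclear body factors and not in that of interferon-stimulated genes. The count of 0 calls in the latter list therefore leaves Pml out. Pml was at 9.89, 10.20 and 9.99 untreated and at 9.30, 9.37 and 9.28 with AA2G, with no overlap. The log2 fold change was -0.71 ± 0.09 (SE; limma adjusted p = 0.0155). It was the only called gene of 6 measured in the list of nuclear body factors, where the chaperone gene Daxx was at -0.17 ± 0.08 and the median was -0.04. The call of Pml was lost without untreated replicate 3 (adjusted p = 0.0787), AA2G replicate 1 (0.0607), AA2G replicate 2 (0.0580) or AA2G replicate 3 (0.0833), and over all alternatives the adjusted p ran from 0.00314 to 0.203.

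Relatives of the restriction factors were not alike in direction. Mov10l1, the germline paralogue of Mov10 that serves the piRNA pathway, rose from 7.01 ± 0.09 to 8.58 ± 0.09 (SD, n = 3 each), a log2 fold change of 1.57 ± 0.08 (SE; limma adjusted p = 0.000212), while Mov10 itself was at 0.05. Of the 4 measured paralogues of Mov10 and Zc3hav1 this was the only call, where 0.761% of all features were called. The groups did not overlap for 3 of the 4 (Mov10l1, Zc3hav1l and Parp12, described above), against 15.7% of all features. The list was drawn up with the change of Mov10l1 known, so nothing is read from these counts. Zc3hav1l was at -0.43 ± 0.09 (limma adjusted p = 0.126), and Tiparp at -0.08 on its brighter feature and at -0.31 on the other. Of 3 APOBEC relatives 0 were called, and Apobec1, Apobec2 and Apobec4 were at -0.09, -0.09 and -0.10.

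Outside the set, the IFITM family held Ifitm5, Ifitm6 and Ifitm10, with 0 of 3 called by limma and 1 lower by an unadjusted p below 0.05. Ifitm5, which is known from bone, was at 5.75, 6.09 and 5.99 untreated and at 5.39, 5.47 and 5.57 with AA2G. The groups did not overlap, and the direction was opposite to that of Ifitm3, with a log2 fold change of -0.47 ± 0.10 (SE; limma adjusted p = 0.116). Ifitm6 was at 0.19 ± 0.10 (adjusted p = 0.582) and Ifitm10 at -0.03 ± 0.09. Ifitm7 shares its features with another gene and was not tested.

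Fv1 is one of many mouse genes made from retroelements, and 14 others were measured. Of these Pnma5, a gene of the Gag-derived paraneoplastic antigen family, rose from 4.37 ± 0.21 to 5.88 ± 0.27 (SD, n = 3 each; log2 fold change 1.51 ± 0.15, SE; limma adjusted p = 0.00526). The untreated level of Pnma5 was below 4.99 and cannot be told from background, so the size of its rise is uncertain. The other 13 were not called, 10 of the 14 had a negative value, and the median was -0.03. By an unadjusted p below 0.05, 1 was higher (Pnma5) and 2 were lower, and the lowest log2 fold change of the list was -0.47. Peg10, an imprinted gene of the placenta, was at -0.32 ± 0.10 (limma adjusted p = 0.297). Among 19 genes that silence proviruses in embryonic stem cells limma called 0, with 1 higher and 0 lower by an unadjusted p below 0.05 and a median of 0.00. Trim28, the corepressor that recruits this silencing, was at 0.00 ± 0.08, and Atf7ip, a partner of the methyltransferase Setdb1, at 0.23 ± 0.08. Of 10 early germ cell genes, the setting in which Ifitm3 is known as Fragilis, 0 were called, 0 were higher and 1 was lower by an unadjusted p below 0.05 (Dnd1, -0.17 ± 0.07), and Kit was at 0.20 ± 0.10.

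**Figure D3:**
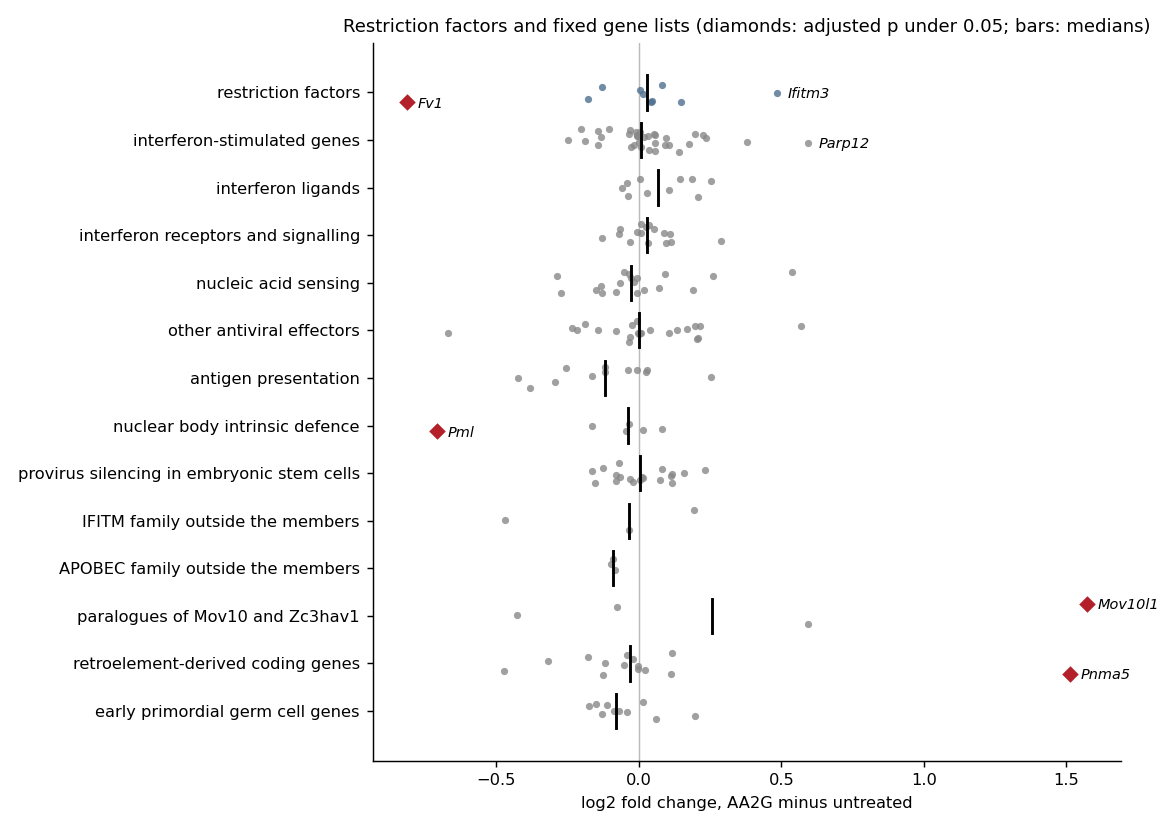
Log2 fold change (AA2G minus untreated) of each of the 10 restriction factor genes and of each measured gene of 13 fixed lists, 1 point a gene at its brightest feature, with black bars at the medians and red diamonds for an adjusted p under 0.05 in the limma model. Fv1 and Ifitm3 lie at -0.82 and 0.48. The interferon lists, in which Pml was not placed, hold no diamond, and Pml, Mov10l1 and Pnma5 are the only diamonds in the lists.

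The genes next to Fv1 and to the Ifitm cluster were read in RefSeq gene order. The start of Fv1 on chromosome 4 lies 260 bases from the nearer annotated start of Miip, an inhibitor of cell migration, which runs the opposite way. Miip was at 7.19, 6.94 and 7.21 in untreated cells and at 6.89, 6.87 and 6.70 with AA2G, lower on all AA2G arrays by a gap of 0.05. Its log2 fold change of -0.29 ± 0.10 (SE) did not pass (limma adjusted p = 0.345). On the other side Mfn2, a mitochondrial fusion gene, was at 0.09 ± 0.11. Of the 10 nearest measured genes around Fv1 limma called 0, and they ran from -0.29 to 0.31, the highest being the zinc finger gene Zfp534 (adjusted p = 0.166).

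Around the Ifitm cluster on chromosome 7, limma likewise called 0 of the 10 nearest measured genes, and they ran from -0.47 (Ifitm5) to 0.19 (Ifitm6). The nearest of all are these 2 family members, which flank the cluster. The remaining 8 lay between -0.11 (Nlrp6) and 0.11 (Sigirr). At an unadjusted p under 0.05 there were Miip and Zfp534, at the Fv1 locus, and Ifitm5. Array weights gave 1 call, that of Ifitm5 (limma adjusted p = 0.0329, with a range from 0.0329 to 0.364 over the 15 alternatives).

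**Figure D4:**
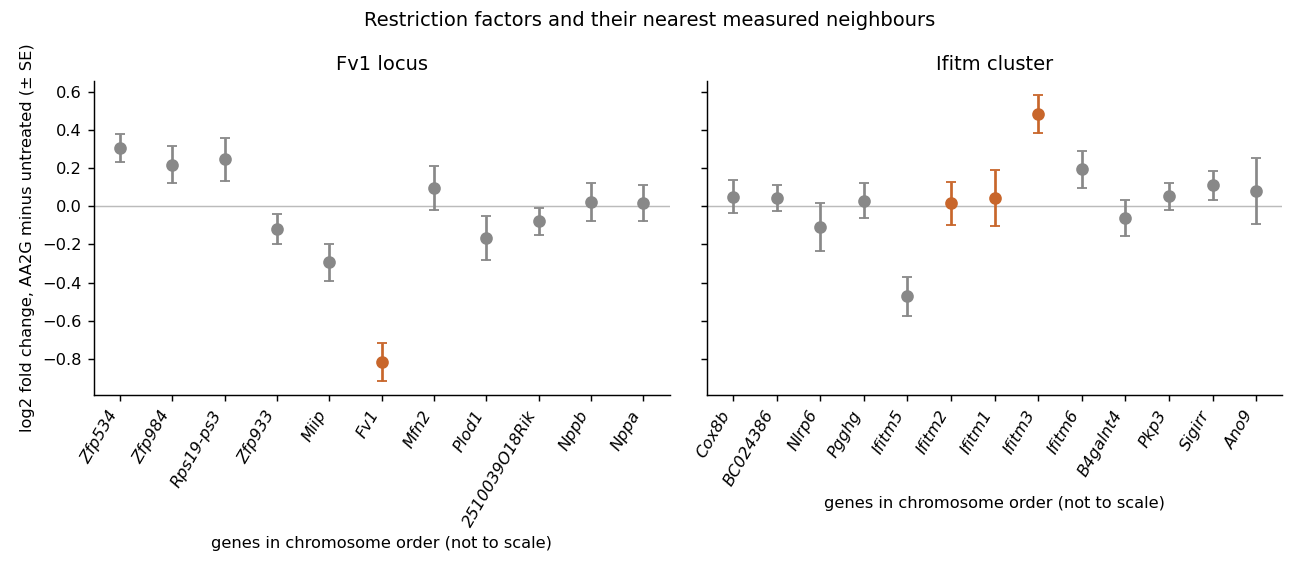
Log2 fold change (AA2G minus untreated, bars of 1 SE) of the restriction factor genes (orange) and of the 5 nearest measured genes on each side (grey), in chromosome order and not to scale. Fv1 lies at -0.82 and Ifitm3 at 0.48. Their neighbours run from -0.29 to 0.31 at the Fv1 locus and from -0.47 to 0.19 at the Ifitm cluster. Fv1 and Ifitm3 were selected on their values and the neighbours were not, so the comparison is a description only.

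The genes with the pattern most like that of Fv1 over the 6 arrays were Gstt3 (Pearson r = 0.998), Cask (0.997), Rcor1 (0.996), Fgf15 (0.996) and Nono (0.995), with log2 fold changes of -0.52, -0.49, -0.29, -0.92 and -0.14. Those most like Ifitm3 were Cttnbp2nl (r = 0.996), Nfkbib (0.995), Anxa4 (0.989), Ap2m1 (0.987) and Ccdc38 (0.986), with log2 fold changes from 0.08 (Anxa4) to 0.37 (Ccdc38). The arrays share the group difference, so such values describe likeness on these arrays and carry no p. None of these 10 genes is in the lists above.

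All 9 markers of embryonic stem cells had mean levels above 4.99. In untreated cells Tdgf1, Utf1, Nanog, Zfp42 and Sox2 had means of at least 11.15 (Sox2), and Fgf4 stood at 9.94, Klf4 at 9.37, Pou5f1 at 7.64 and Esrrb at 7.38. Of the 9 stem cell markers 0 were called in limma and 3 were lower by an unadjusted p below 0.05 (Klf4, Nanog and Pou5f1), and their summed log2 values ran from 91.5 to 91.6 on untreated arrays and from 90.7 to 90.8 on AA2G arrays. The 7 trophoblast markers summed to 37.7 to 38.1 on untreated arrays and 36.3 to 37.2 on AA2G arrays, without overlap. Of these 7, 0 were called, and 2 were lower and 0 higher by an unadjusted p below 0.05 (Krt8 and Krt18, the lowest in p). The lowest log2 fold change among them was -0.43. The sums of 8 immune markers (40.6 to 41.8 and 41.2 to 42.4), 9 feeder fibroblast markers (42.8 to 43.7 and 42.5 to 43.7) and 7 extraembryonic endoderm markers (37.8 to 38.6 and 37.5 to 38.0) overlapped between the groups. By an unadjusted p below 0.05, 2 immune markers were higher (Lyz2 at 0.47 ± 0.12 and Cd3e at 0.36 ± 0.10, SE, log2 fold change), 1 fibroblast marker was lower (Dcn at -0.27 ± 0.10) and 1 endoderm marker was lower (Sox7 at -0.20 ± 0.09), each with groups that did not overlap and none called. Of the 8 immune markers 6 had a mean level below 4.99, and so did 5 of the 9 fibroblast markers. The part of these markers in the values of Fv1 and Ifitm3 was not tested, and in cultures measured as a whole, fewer cells that make a transcript cannot be told from less of it per cell.

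Over all features, limma called 179 of 23521, 143 higher and 36 lower. That number fell to 98, 101 and 64 without untreated replicates 1, 2 and 3, and to 89 and 88 without AA2G replicates 2 and 3.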

How the data were processed

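Total RNA of 6 samples was measured on the Mouse Gene 2.0 ST array, 1 array each. The deposited values are log2 expression made with RMA in Affymetrix Expression Console, as the submitters' processing notes list them. Versions and build: not given in the sources used here. RMA fits all arrays to 1 distribution, so a change in total RNA per cell is not seen. Arrays have no read depth, and their number limits the precision.

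Of 41345 features, 23521 have 1 symbol in the platform annotation, 1814 have several and 16010 have none listed. The first went into a limma model (limma 3.58.1, R 4.3.3; lmFit and eBayes, two-sided, no covariate), with Benjamini-Hochberg adjustment over all of them and a threshold of 0.05. The fit was tested on simulated data. Fold changes are AA2G minus untreated. With 3 arrays a group, the smallest p of an exact permutation test is 0.1, so none was run on single genes. The 10 genes and all lists were chosen with earlier results of these data known.

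Named genes are the 10, each list's called genes or else usually its 2 smallest p-values, all IFITM, APOBEC and paralogue genes, called and nearest neighbours, marker genes and the 5 features most like Fv1 and Ifitm3 by Pearson r (predicted genes, clones, small RNAs and receptors of smell left out). Isg15, Trim28, Setdb1, Zfp534, Nlrp6 and Sigirr were named after their values were seen. Daxx and Peg10 were also named outside this rule, in lists that had a called gene. Of the list genes, Ddx58 stood for Rigi. Some listed genes were not analysed here.

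Alternatives changed the scaling (quantile normalization repeated, or 1 median for all arrays), the variance model (ordinary variances, or a trended and robust prior), the weighting of arrays, the features (brighter ones with a mean above 4.99, all of the table, or 1 per gene) and the arrays (each left out), or added the replicate number to the model as a block.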

Additional observations from a re-analysis of the deposited data

How the results depend on the processing

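The log2 fold change of each of the 10 genes moved by less than its SD between replicates under all alternatives run, and Fv1 (-0.90 to -0.74) and Ifitm3 (0.43 to 0.57) kept their sign in 15 of 15. Fv1 passed in 11 and Ifitm3 in 3. The number of the 10 called was 1, and became 2 with array weights, a trended robust prior or brighter features only, 0 with ordinary variances, and 0 to 1 with an array left out. Of all features, 179 were called, against 496 with array weights (303 higher and 193 lower), 277 with a trended robust prior, 13 with ordinary variances and 64 to 131 with an array left out. Brighter features only gave 165 higher and 86 lower.

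Of 210 counts over lists and neighbours, 186 were equal to the main count or within 1.5 times of it. Most of these were counts of 0 that stayed at 0, so the share says little about lists that had a call. The interferon-stimulated genes went from 0 to 1 (Parp12) with array weights, brighter features only, repeated quantile normalization, the trended robust prior and the replicate block, and ran from 0 to 1 with an array left out. For the same gene the paralogues went from 1 to 2 under these settings (3 with array weights, adding Zc3hav1l) and ran from 1 to 2 with an array left out. Nucleic acid sensing went from 0 to 1 with array weights (Aim2) and ran from 0 to 1 with an array left out. The IFITM relatives and the neighbours went from 0 to 1 with array weights (Ifitm5). Nuclear body genes went from 1 to 0 in the fit of all features and with ordinary variances, and ran from 0 to 1 with an array left out. Retroelement genes went from 1 to 0 with ordinary variances. The cause was not tested.

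With the replicate number as a block, 155 features were called, 1 of the 10 genes (Fv1) remained so, and Trim30d took the other effectors from 0 to 1. Deviations of same-numbered arrays correlated at 0.23, 0.22 and 0.02, against -0.22 in both crossings of replicates 1 and 2. Every array correlated best with its own number, which is a hint of shared structure from the data and not from the design. The labels do not say that the numbers mark pairs, so they were not taken as pairs in the main fit. Dim features such as Rsad2 were left out of the brighter fit.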
